A study of Mus musculus with 549 samples.

Results

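The genes described here are the cell-surface receptors that bind native collagen: the integrin α subunits Itga1, Itga2, Itga10 and Itga11, their only β partner Itgb1, and the discoidin domain receptors Ddr1 and Ddr2. They were taken by symbol from 12 tables of 3′ RNA-seq counts, and all 7 were present in every table, out of 23385 gene symbols. The tables cover 4 mouse tissues, namely tibial cartilage, metaphyseal cortical and cancellous bone with the marrow removed, and inguinal lymph node. Male C57BL/6J mice, 18 weeks old at the start, received parathyroid hormone (PTH 1-34, given intermittently as a bone anabolic) or saline vehicle for 8 weeks. The left tibia was then loaded in compression at a peak of 9 N, 5 days a week for 1 or 2 weeks, and during loading the mice were given the osteoclast inhibitor alendronate or vehicle.

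The groups after loading were PTH then alendronate, vehicle then alendronate, PTH then vehicle, and vehicle throughout, each with a loaded left limb and a right limb of the same animals as contralateral control. Mice were about 27 weeks old after 1 week of loading and 28 weeks after 2 weeks. Before loading, at about 26 weeks, PTH-treated and vehicle-treated mice gave both limbs. The labels name no transgene or deletion, and every contralateral limb belonged to a mouse whose other limb had been loaded. Of 505 libraries, 477 held 100000 reads or more and were kept, and depth ran between 3630 and 3557793 reads with a median of 1551090. The chondrocyte markers summed to 953 to 3258 counts per 1e6 reads (CPM) in vehicle cartilage before loading and to 2.88 to 18.8 CPM in vehicle lymph node, where Acan, Col9a1 and Matn3 were at 0. The same cartilage libraries also held 5275 to 17025 CPM of osteoblast and osteocyte markers, so the tissue labelled cartilage was not free of bone. In bulk tissue, fewer cells of a type and less RNA per cell cannot be told apart.

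Each collagen-binding integrin is a dimer of Itgb1 with 1 α subunit, and links collagen outside the cell to the actin cytoskeleton. Itga1 and Itga2 are found on many cells, Itga2 also on platelets. Itga10 is the main collagen-binding α subunit of chondrocytes, and Itga11 is that of fibroblasts and other mesenchymal cells, where it takes part in the remodelling of collagen I matrix. Ddr1 and Ddr2 are receptor tyrosine kinases that collagen itself activates. Ddr1 is mostly epithelial and Ddr2 mostly mesenchymal, and Ddr2 is known for its place in mouse models of osteoarthritis, where it responds to collagen II exposed in damaged cartilage.

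On GRCm38 (GENCODE M21) the genes lay apart except for the neighbours Itga2 (chr13:114833081-114932100, minus strand) and Itga1 (chr13:114953096-115101964, minus strand). Itga10 was at chr3:96645584-96664519 (plus), Itga11 at chr9:62677826-62783982 (plus), Itgb1 at chr8:128685654-128733200 (plus), Ddr1 at chr17:35681567-35704621 (minus) and Ddr2 at chr1:169972307-170110762 (minus). All 7 are protein coding. The antisense gene 3110045C21Rik, also in the tables, spans the 3′ end of Ddr2. Whether the counting used strand is not given in the sources used here, so reads of Ddr2 and of this antisense gene may not have been separated.

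Itga11, Itgb1, Ddr2, Itga10 and Ddr1 carried the differences in cartilage described further on. Ddr1, with 4 RefSeq start sites listed, is left out here. For the others, the 250 bases before their RefSeq start sites (GRCm38.p6) are shown. They lay at chr9:62677605-62677854 (plus strand), chr8:128685404-128685653 (plus), chr1:170088945-170089194 (minus) and chr3:96645334-96645583 (plus). Both strands were searched for GGAATG (the TEAD core), GGGCGG (the GC box), TGACGTCA (the cAMP response element), GTCTAGAC (a SMAD palindrome) and TATAAA (the TATA box), and capitals mark a match on either strand.
Itga11: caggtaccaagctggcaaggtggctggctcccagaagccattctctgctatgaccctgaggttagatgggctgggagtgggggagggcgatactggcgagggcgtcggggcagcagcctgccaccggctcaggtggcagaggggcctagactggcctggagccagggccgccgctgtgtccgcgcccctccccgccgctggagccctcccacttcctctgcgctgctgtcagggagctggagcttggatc
Itgb1: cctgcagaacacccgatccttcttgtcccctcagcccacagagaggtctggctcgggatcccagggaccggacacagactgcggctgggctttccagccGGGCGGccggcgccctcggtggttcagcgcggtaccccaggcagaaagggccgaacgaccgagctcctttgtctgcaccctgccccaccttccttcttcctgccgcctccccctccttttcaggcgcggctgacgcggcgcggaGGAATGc
Ddr2: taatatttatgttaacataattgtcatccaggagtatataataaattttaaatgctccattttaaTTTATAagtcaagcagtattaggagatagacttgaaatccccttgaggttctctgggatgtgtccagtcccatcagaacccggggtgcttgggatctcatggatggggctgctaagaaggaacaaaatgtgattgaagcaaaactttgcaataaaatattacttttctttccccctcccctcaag
Itga10: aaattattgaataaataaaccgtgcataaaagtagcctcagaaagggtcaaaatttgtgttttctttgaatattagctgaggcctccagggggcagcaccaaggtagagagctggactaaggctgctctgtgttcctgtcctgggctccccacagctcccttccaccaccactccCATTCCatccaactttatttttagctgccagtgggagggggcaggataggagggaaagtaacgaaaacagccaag
Itgb1 held 1 GGAATG and 1 GGGCGG, Ddr2 held 1 TATAAA and Itga10 held 1 GGAATG, and none of these matches overlapped another. Itga11 held none of the 5. Among 32536 promoters of this length, 12.6% held GGAATG, 33% held GGGCGG, 12.3% held TATAAA, 1.56% held TGACGTCA and 0.169% held GTCTAGAC. The bases of Ddr2 were 37.6% G or C, against 68.4% in Itga11, 68% in Itgb1 and 48% in Itga10. Ddr2's RefSeq start lies within the longer GENCODE gene, so its window is 1 of its possible promoters.

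Before loading, in vehicle-treated mice, the receptors were found in all 4 tissues. The levels below are CPM from tables that were normalised separately, and they rank tissues for 1 gene only, since 3′ counts are not corrected for how well each gene is captured. Itgb1 was the highest in cortical bone (357, 583 and 772 CPM as lowest, median and highest of 7 libraries) and the lowest in lymph node (208, 294 and 359 CPM of 16). Ddr2 had a median of 217 CPM in cancellous bone, 193 in cortical bone, 110 in lymph node and 104 in cartilage. The tissues next to each other in these orders overlapped for both genes.

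In these vehicle libraries before loading, Itga10 and Itga11 separated lymph node from the skeleton. Itga10 had a median of 58.6 CPM in cortical bone, 51.0 in cancellous bone, 34.9 in cartilage and 1.28 in lymph node. Itga11 followed the same order, with 20.1, 15.1, 12.3 and 1.81 CPM. The highest lymph node library, 4.76 CPM for either gene, lay under the lowest cartilage library, 16.6 CPM for Itga10 and 5.08 CPM for Itga11. These were the only neighbouring tissues in any member's order whose libraries did not overlap. The separation did not hold in all other groups. After PTH, cartilage before loading fell to 4.63 CPM for Itga11. In contralateral lymph node of vehicle throughout at 1 week, the highest values were 26.8 CPM for Itga10 and 52.2 CPM for Itga11.

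The other members differed less between tissues. Itga1 ranged over medians of 35.7 CPM in cancellous bone, 29.2 in cortical bone, 26.4 in lymph node and 24 in cartilage. Ddr1 was the only member with its highest median in lymph node (19.2 CPM), ahead of cortical bone (15.7), cancellous bone (15.1) and cartilage (12.3). Itga2 had medians of 23.5 CPM in cancellous bone, 17.3 in cartilage, 5.79 in cortical bone and 3.73 in lymph node, and single libraries of cancellous bone and cartilage were at 0. All these neighbours overlapped.

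**Figure D1:**
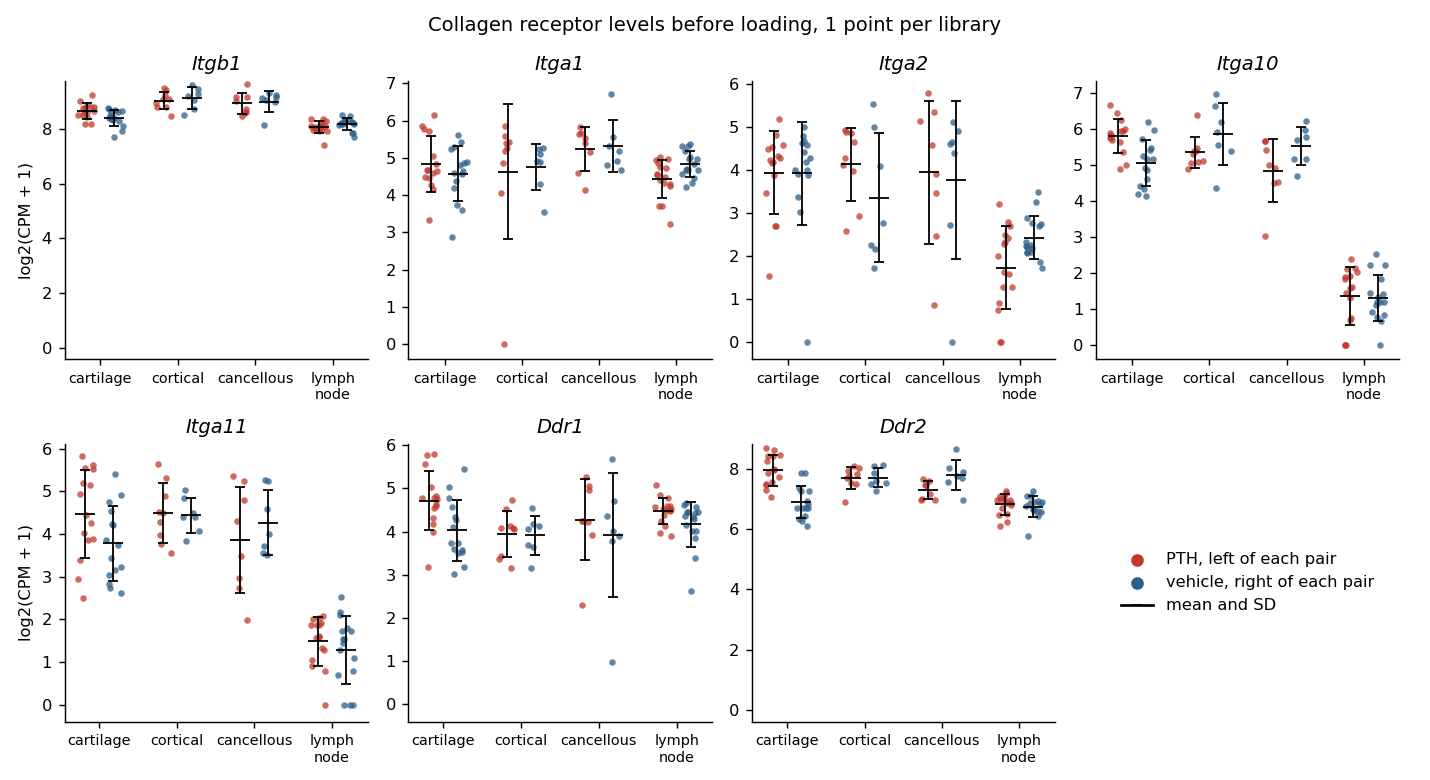
Level of each receptor before loading as log2(CPM + 1) in 4 tissues, 1 point per library, PTH-treated mice left of vehicle-treated mice in each pair, with mean and SD. Ddr2 (1.11 higher on the log2 scale of the test) and Itga10 (0.78) in cartilage are the 2 members whose PTH difference passed the test, and the lymph node stands low for Itga10 and Itga11.

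Whether 8 weeks of PTH alone had changed the receptors was asked before loading. In cartilage, Ddr2 and Itga10 were higher after PTH, and all 7 members had estimates above 0, between 0.06 and 1.11 on the log2 scale. Ddr2 had 120, 233 and 412 normalised counts (lowest, median, highest of 15 libraries) after PTH, against 61.4, 96.9 and 216 after vehicle (15 libraries). The PTH range began above the vehicle median, and the groups overlapped. Each group pooled left and right limbs, from 8 mice per limb before libraries were dropped for depth, so the libraries were not all separate mice. On the log2(normalised count + 1) scale the means were 7.91 ± 0.59 after PTH and 6.80 ± 0.50 after vehicle (SD), a difference of 1.11 ± 0.19 (SE) with an adjusted p of 0.00067 (limma, Benjamini-Hochberg over all genes tested).

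Itga10, the chondrocyte α subunit, had 24.9, 58 and 99.3 normalised counts after PTH, against 15.0, 31.6 and 67.1 after vehicle. Its difference was 0.78 ± 0.21 (adjusted p = 0.012, limma). These 2 of 7 members passed the test at an adjusted p under 0.05, where 14.6% of the 12705 genes tested in cartilage did. Ddr1 (0.73, adjusted p = 0.051), Itgb1 (0.31, 0.075), Itga11 (0.75, 0.13), Itga1 (0.33, 0.42) and Itga2 (0.06, 0.93) did not pass in the same limma fit. Within the right limbs alone Ddr2 differed by 1.31 ± 0.26 (adjusted p = 0.0045) and Itga10 by 0.78 ± 0.30 (0.083), and within the left limbs alone by 0.91 ± 0.25 (0.28) and 0.77 ± 0.27 (0.35). With libraries under 100000 reads included Itga10 differed by 0.34 (adjusted p = 0.73).

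Markers of other cells differed between the same PTH and vehicle cartilage libraries. Fibroblast markers summed to 2370, 8216 and 15139 CPM (lowest, median, highest) after PTH and to 1019, 2525 and 10248 CPM after vehicle, and 5 of 7 rose. Neutrophil markers summed to 2792, 20295 and 40756 CPM after PTH and to 19292, 35124 and 55921 CPM after vehicle, and 7 of 7 fell, as did 7 of 7 platelet markers. Among osteoblast and osteocyte markers 8 of 10 rose, with Alpl (1.18) and Mepe (1.45) of smallest p, and 3 of 8 tested chondrocyte markers rose. The part of these markers in the Ddr2 and Itga10 differences was not tested.

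The receptors' surroundings in the same comparison, where 14.6% of all genes passed, were mixed. Of 16 collagen genes that encode ligands, 8 rose and none fell with PTH in cartilage, with a median of 0.81 against 0.02 over all genes. Col13a1 (1.01) and Col6a3 (1.1) were the 2 of smallest p. Of 22 integrin adapters tested, 6 rose and 6 fell, and the 2 of smallest p were Fermt2, a kindlin that binds β integrin tails (1.24), and Tns1, a tensin (0.80). Of 18 other integrin subunits tested, 2 rose and 7 fell, including the platelet subunits Itga2b (fell by 1.63) and Itgb3 (fell by 0.87). Among other collagen receptors, the endocytic receptor Mrc2 rose (0.86) and the platelet receptor Gp6 fell by 0.92.

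No member passed the limma test for PTH in the other tissues before loading. Over all 4 tissues edgeR on the recovered reads passed 3 values, and the share of genes passing in edgeR is not given here. By limma 0.0076% of genes passed in cortical bone, 0% in cancellous bone and 0.734% in lymph node. Over the 4 tissues 7 of 28 member values had an unadjusted p under 0.05, 5 of them in cartilage and 2 in lymph node. In lymph node Itga1 was lower after PTH by 0.42 ± 0.16 (adjusted p = 0.18) and Itga2 by 0.79 ± 0.30 (0.18), neither past the limma test.

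**Figure D2:**
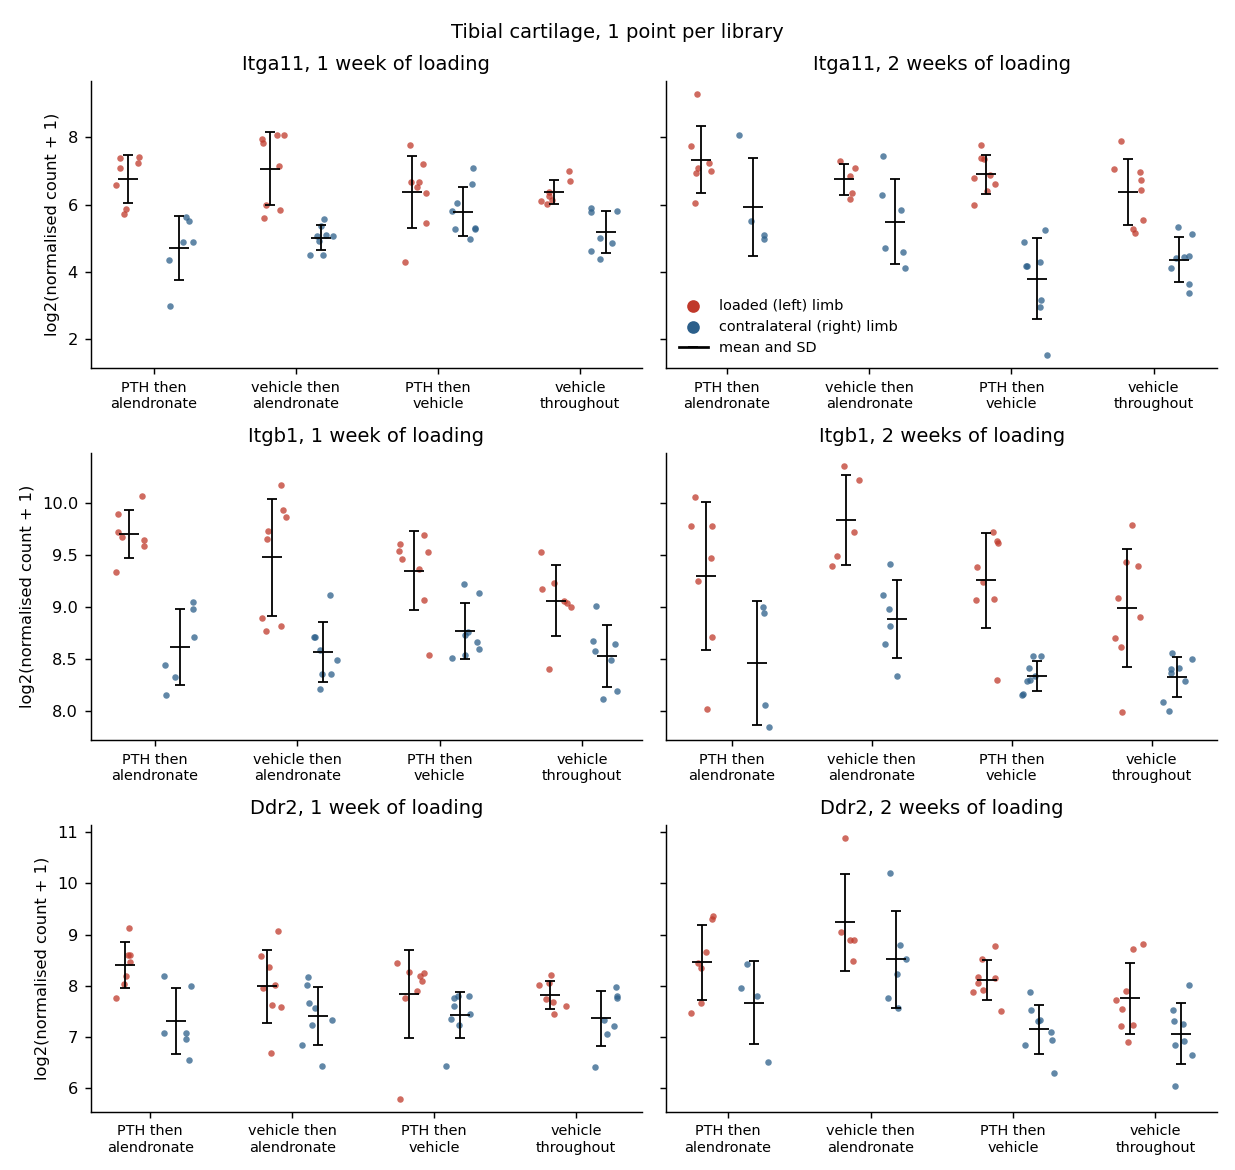
Itga11, Itgb1 and Ddr2 in tibial cartilage as log2(normalised count + 1), loaded limb left of contralateral limb within each treatment, 1 point per library with mean and SD, at 1 and 2 weeks. The loaded mean is above the contralateral mean in every one of the 8 treatment groups for each of the 3 genes. The ranges of Itga11 separate completely in every treatment but PTH then vehicle at 1 week, and only in PTH then vehicle at 2 weeks.

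Itga11, Itgb1 and, less strongly, Ddr2 were higher in loaded than in contralateral cartilage. Every loaded limb was the left and every contralateral limb the right, so loading and side cannot be told apart in comparisons of limbs. The loaded limb was above the contralateral limb in every one of the 8 treatment groups for these 3 genes. With loading averaged over the 4 treatments, a summary added after the data had been seen, Itga11 rose by 1.46 ± 0.19 at 1 week (adjusted p = 1.6e-08) and by 1.94 ± 0.26 at 2 weeks (4.1e-08), Itgb1 by 0.78 ± 0.09 (5.7e-10) and 0.84 ± 0.13 (2e-06), and Ddr2 by 0.63 ± 0.14 (0.00046) and 0.79 ± 0.18 (0.0011), all log2 differences with SE from limma. Ddr1 rose at 1 week (0.71 ± 0.18, 0.0016) and Itga10 at 2 weeks (0.70 ± 0.23, 0.024), the last not without contralateral replicate 7 of PTH then alendronate (0.061). At each time 4 of 7 members passed, where 24.6% of 14729 genes did at 1 week and 21.2% of 15187 at 2 weeks.

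Itga11, the fibroblast receptor for collagen I, differed most between limbs. After 1 week of loading it had 52.1, 134 and 168 normalised counts in loaded limbs of mice given PTH then alendronate (lowest, median, highest of 7), against 7.04, 28.5 and 49.0 in contralateral limbs (6). With vehicle then alendronate it had 47.8, 184 and 268 in loaded limbs (8), against 21.5, 32.6 and 46.2 in contralateral limbs (8). With vehicle throughout it had 63.3, 74.8 and 128 in loaded limbs (7), against 19.9, 31 and 58.4 in contralateral limbs (7). In these 3 treatments no loaded library fell within the contralateral range. Only PTH then vehicle overlapped, with 18.8, 96 and 215 in loaded limbs (8) against 30.3, 46.8 and 133 in contralateral limbs (8), and its difference did not pass.

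The limma test for Itga11 within each treatment followed those ranges in part. The log2 difference was 2.03 ± 0.41 for PTH then alendronate (adjusted p = 0.00044) and 2.05 ± 0.37 for vehicle then alendronate (6.9e-05). It was 1.18 ± 0.39 for vehicle throughout (adjusted p = 0.14), which did not pass. PTH then vehicle, which did not pass either, had the closest means, 6.37 in loaded and 5.79 in contralateral limbs on the log2(normalised count + 1) scale. With limbs paired by replicate number as a fixed block, the PTH then alendronate difference was 1.98 with an adjusted p of 0.17. In this treatment at 1 week 1 shared replicate number joined limbs of different mice by their codes. Its pairing was therefore not wholly within mice, for this or any other member.

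At 2 weeks the separation of Itga11 was widest in mice that had received PTH then vehicle. Their loaded limbs had 62.9, 113 and 219 normalised counts (8), against 1.90, 17.2 and 36.6 in contralateral limbs (8), with no overlap. With vehicle throughout, loaded limbs had 34.7, 94.8 and 237 (8) and contralateral limbs 9.29, 20.4 and 39.2 (8), which overlapped at the edge. The differences were 3.09 ± 0.46 (adjusted p = 4.6e-06) for PTH then vehicle and 2.02 ± 0.46 (0.0069) for vehicle throughout, both past the limma test.

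The 2 alendronate groups overlapped for Itga11 at 2 weeks. With PTH then alendronate, loaded limbs had 65.6, 135 and 618 normalised counts (7), and the 4 contralateral libraries had 267, 30.4, 33.2 and 44.9. With vehicle then alendronate, the 5 loaded libraries had 113, 134, 154, 71.4 and 80.4, and contralateral limbs had 16.2, 40.6 and 173 (6). With PTH then alendronate 1 contralateral library reached the loaded range, and with vehicle then alendronate 2 did. The differences were 1.41 ± 0.57 (adjusted p = 0.31) and 1.25 ± 0.55 (0.17), and neither passed.

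Itgb1, the shared β subunit, changed less in size and with less spread. At 1 week loaded limbs had 646, 814 and 1070 normalised counts with PTH then alendronate (7), against 284, 383 and 529 in contralateral limbs (6), with no overlap. With vehicle then alendronate they had 434, 825 and 1151 (8) against 295, 370 and 554 (8), with PTH then vehicle 369, 719 and 825 (8) against 364, 413 and 596 (8), and with vehicle throughout 338, 532 and 734 (7) against 277, 380 and 513 (7). In the last 3 treatments the limbs overlapped.

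The differences of Itgb1 at 1 week were 1.09 ± 0.19 with PTH then alendronate (adjusted p = 7.2e-05), 0.91 ± 0.17 with vehicle then alendronate (0.00019) and 0.58 ± 0.17 with PTH then vehicle (0.049), all past the limma test. With vehicle throughout the difference was 0.53 ± 0.19 (0.17) and did not pass. With limbs paired by replicate number as a fixed block, the adjusted p was 0.055 for PTH then alendronate and 0.13 for PTH then vehicle. The PTH then vehicle call was also lost with a pseudocount of 0.25 (0.052), with no filter on low values (0.064), with no mouse block (0.067), under quantile scaling (0.068) and without contralateral replicate 4 of PTH then alendronate (0.052). Without the cartilage libraries rich in muscle markers, described with those markers, its adjusted p was 0.050, just over the threshold.

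At 2 weeks Itgb1 in loaded limbs had 314, 635 and 843 normalised counts with PTH then vehicle (8), against 283, 317 and 369 in contralateral limbs (8). With vehicle then alendronate the 5 loaded libraries had 843, 1188, 1308, 671 and 717, against 321, 477 and 680 in contralateral limbs (6), so that 1 loaded library lay within the contralateral range. The differences were 0.92 ± 0.23 (adjusted p = 0.011) and 0.95 ± 0.28 (0.033). The vehicle then alendronate call was lost with limbs paired as a fixed block (0.61), and without replicate 2 or 3 of its loaded limbs (highest adjusted p 0.091). PTH then alendronate (0.83 ± 0.29, 0.22) and vehicle throughout (0.66 ± 0.23, 0.16) did not pass.

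Ddr2 and Ddr1 were followed in the same limbs. Ddr2 had 215, 352 and 558 normalised counts in loaded limbs of mice given PTH then alendronate at 1 week (7), against 93.0, 134 and 293 in contralateral limbs (6). The groups overlapped, and the difference of 1.08 ± 0.30 passed (adjusted p = 0.013, limma), but not with limbs paired as a block (0.069). In the other treatments at 1 week the loaded median was 253 with vehicle then alendronate (175 in contralateral limbs), 281 with PTH then vehicle (184) and 212 with vehicle throughout (160), and none passed. At 2 weeks no single treatment passed for Ddr2, and the nearest was PTH then vehicle, with a difference of 0.97 ± 0.33 (adjusted p = 0.073).

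Ddr1 had 27.3, 44.9 and 104 normalised counts in loaded limbs of mice given PTH then alendronate at 1 week (7), against 2.16, 16.0 and 26.9 in contralateral limbs (6), with no overlap. The difference was 1.94 ± 0.38 (adjusted p = 0.00029, limma), and 2.07 with an adjusted p of 0.16 when limbs were paired as a block. No other treatment passed for Ddr1 at either time. Its loaded median at 2 weeks was 26.3 with PTH then alendronate (22.0 in contralateral limbs), 34.4 with vehicle then alendronate (27.3), 22.3 with PTH then vehicle (14.1) and 27.7 with vehicle throughout (16.5).

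Itga10 rose in loaded cartilage in 1 treatment at 1 week. With PTH then alendronate it had 31.7, 112 and 287 normalised counts in loaded limbs (7), against 10.5, 43.9 and 60.4 in contralateral limbs (6), with an overlap. The difference was 1.64 ± 0.42 (adjusted p = 0.0061, limma) and 1.69 with an adjusted p of 0.12 when limbs were paired as a block. With PTH then vehicle its loaded median, 61.5, was below the contralateral median, 99.8. At 2 weeks its loaded median was 81.8 with PTH then alendronate (53 in contralateral limbs), 117 with vehicle then alendronate (54.4), 82.7 with PTH then vehicle (44.8) and 74.8 with vehicle throughout (47.1). The loaded median was the higher in all 4 treatments, and no single treatment passed.

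Itga1 and Itga2 did not pass the test for loading in cartilage in any treatment or on average. The averaged difference of Itga1 was 0.44 at 1 week (adjusted p = 0.12) and 0.40 at 2 weeks (0.39), and that of Itga2 was -0.07 (0.92) and 0.40 (0.44). Itga2 was close to the detection limit in these libraries, with group medians between 1.69 and 14.3 normalised counts and at least 1 library at 0 in 14 of 16 groups. The 95% interval of its averaged difference ran from -0.77 to 0.63 at 1 week and from -0.29 to 1.09 at 2 weeks.

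Counted over members and treatments, 8 of 28 values rose and none fell at 1 week, and 4 of 28 rose and none fell at 2 weeks. At 1 week 5 of 7 members passed with PTH then alendronate, where 10.4% of genes did, 2 with vehicle then alendronate (6.42%), 1 with PTH then vehicle (2.99%) and 0 with vehicle throughout (1.3%). At 2 weeks 2 members passed with PTH then vehicle (4.71% of genes), 1 with vehicle then alendronate (6.24%), 1 with vehicle throughout (1.37%) and 0 with PTH then alendronate (0.593%). With limbs paired as a fixed block, 3 values passed at 1 week and 3 at 2 weeks.

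**Figure D3:**
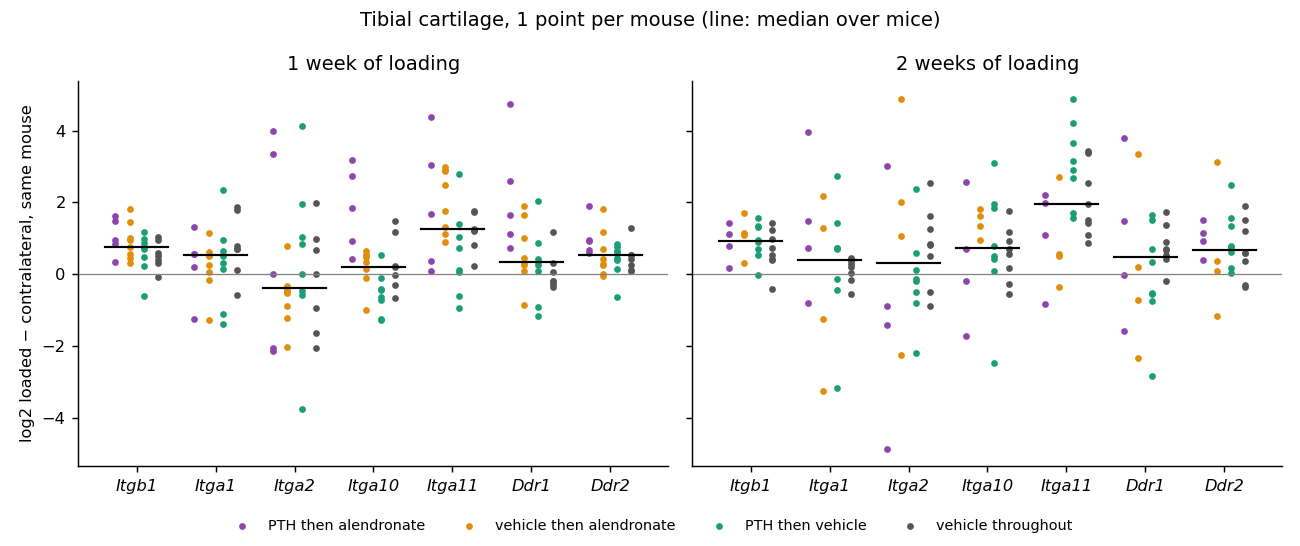
Difference between the loaded and the contralateral limb of the same mouse in tibial cartilage, in log2(normalised count + 1), 1 point per mouse coloured by treatment, with the median over all mice as a line, at 1 week (28 mice) and 2 weeks (24 mice). Itgb1, Itga11 and Ddr2 lie above 0 in nearly every mouse, while Itga2 scatters around 0.

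Within single mice the same 3 genes moved most regularly. At 1 week Itga11, Itgb1 and Ddr2 were each higher in the loaded limb in 26 of 28 mice, with median differences of 1.26, 0.76 and 0.53. Itga1 was higher in 22, Ddr1 in 21, Itga10 in 16 and Itga2 in 10 of the 28. At 2 weeks Itga11 and Itgb1 were higher in 22 of 24 mice and Ddr2 in 21, with medians of 1.97, 0.93 and 0.68. Itga10 was higher in 19, Itga1 in 16, Ddr1 in 15 and Itga2 in 13 of the 24.

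Whether treatment changed the response to loading was asked with an interaction of limb and treatment. None of 154 member values in the 4 tissues passed the limma test, where 0.00216% of genes did, and 18 had an unadjusted p under 0.05. The largest in cartilage was Ddr1 at 1 week, whose loading difference was 1.86 ± 0.53 larger with PTH then alendronate than with vehicle throughout (adjusted p = 0.47). By limma the treatments that passed and those that did not are therefore not shown to differ. An edgeR test on the recovered reads passed 1 value, which is not described further here, and the share of genes passing in edgeR is not given.

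Other cell types moved with loading in the same cartilage libraries, where 24.6% of all genes passed on average at 1 week and 21.2% at 2 weeks. At 1 week 10 of 10 skeletal muscle markers fell (median of averaged differences -2.72), as did 7 of 7 adipocyte markers and 5 of 7 neutrophil markers, while 8 of 9 tested chondrocyte markers and 4 of 7 fibroblast markers rose. With PTH then alendronate the muscle markers summed to 80.7, 608 and 42344 CPM (lowest, median, highest) in loaded limbs and to 397, 13561 and 53071 CPM in contralateral limbs. At 2 weeks no muscle marker changed on average, 6 of 7 adipocyte markers and 5 of 7 neutrophil markers fell, and 8 of 9 chondrocyte and 5 of 7 fibroblast markers rose.

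Fibroblast markers summed to 2776, 12194 and 32293 CPM in loaded limbs at 2 weeks with PTH then vehicle and to 1165, 3753 and 7880 CPM in contralateral limbs. Libraries that held 10000 CPM or more of muscle markers were left out in an alternative added after the data had been seen. At 1 week this left 3 of 6 contralateral libraries of PTH then alendronate and 3 of 7 of vehicle throughout. Libraries with less muscle stayed in. Itga11, Itgb1 and Ddr2 then rose on average at 1 week (1.45, 0.87 and 0.62) and at 2 weeks (1.94, 0.89 and 0.80). Itga10 at 2 weeks no longer passed (0.62, adjusted p = 0.064). Ddr2 with PTH then alendronate at 1 week did not pass without those libraries either (1.1, 0.072). The part of muscle, fibroblasts, chondrocytes and blood cells in these differences was not tested.

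The collagens that these receptors bind rose in the same limbs. Of 16 ligand collagens, 15 rose and none fell at 1 week with loading averaged, with a median of 2.33 against 0.00 over all genes, and 14 rose and none fell at 2 weeks, with a median of 2.43 against -0.01. The 2 of smallest p were Col5a1 (2.82) and Col6a2 (2.83) at 1 week, and Col16a1 (2.60) and Col3a1 (3.28) at 2 weeks. The median over the 7 receptors themselves was 0.63 at 1 week and 0.70 at 2 weeks.

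The remaining receptor machinery changed in both directions with loading averaged. That test passed 24.6% of all genes at 1 week and 21.2% at 2 weeks. The counts below are therefore not read as particular to these lists. Of 22 integrin adapters tested, 5 rose and 2 fell at 1 week and 1 rose and 2 fell at 2 weeks, and Parva, which joins the integrin-linked kinase to actin, rose at both times (0.80 and 0.97). Of the other integrin subunits, 4 of 19 rose and 6 fell at 1 week, with Itgav (0.81) and the leukocyte subunit Itgal (fell by 0.85) of smallest p. At 2 weeks 5 of 21 rose and 6 fell, with the leukocyte subunit Itgb2 (fell by 1.01) and the epithelial subunit Itgb4 (1.71) of smallest p. Among other collagen receptors Mrc2 rose at both times (1.17 and 1.15). Of 6 signalling partners of the discoidin receptors none changed at 1 week, and Adam10, a protease that sheds Ddr1, fell by 0.55 at 2 weeks.

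**Figure D4:**
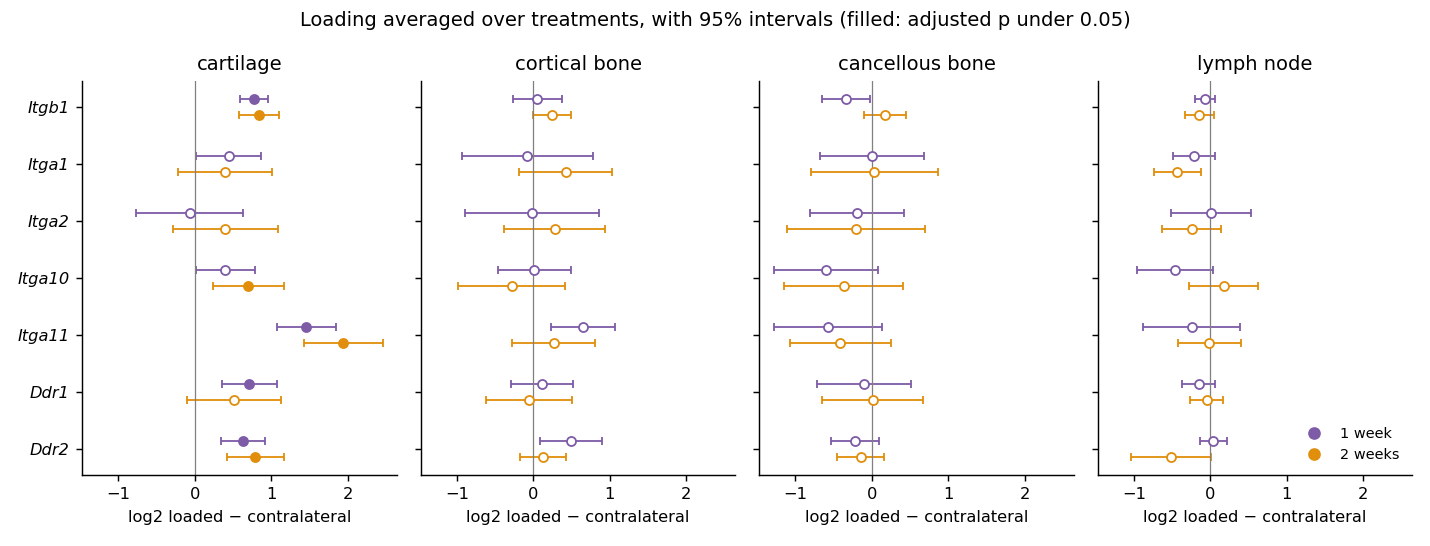
Loaded minus contralateral limb, averaged over treatments, for each receptor in 4 tissues as a log2 difference with its 95% interval, at 1 and 2 weeks, filled where the adjusted p was under 0.05. All 8 filled points are in cartilage, where Itga11 reaches 1.46 at 1 week and 1.94 at 2 weeks.

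Loading gave no member value that passed the limma test in bone or lymph node. None of 49 member values passed in cortical bone (0.0794% of genes did, and 6 member values had an unadjusted p under 0.05), none of 49 in cancellous bone (0.000967%, 5 values) and none of 56 in lymph node (0%, 4 values), by limma. An edgeR test on the recovered reads passed 0 in cortical bone, 0 in cancellous bone and 2 in lymph node. The share of genes passing in edgeR is not given here, so the 2 are not read as particular to the members. Averaged over treatments no member passed by limma or edgeR in any of these tissues. By limma 1.45% and 0.283% of genes passed in cortical bone at 1 and 2 weeks. The shares were 0% and 0% in cancellous bone and 0% and 6.34% in lymph node. In cortical bone Itga11 had its largest averaged difference at 1 week, 0.64 ± 0.21 (adjusted p = 0.12). The difference between tissues was not tested, since each tissue was normalised and fitted on its own.

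Cortical bone shows how the groups lay for Itga11 at 1 week. With vehicle then alendronate, loaded limbs had 16.0, 26.1 and 62.6 normalised counts (8), and with PTH then vehicle the median of 5 loaded libraries was 29.7, against contralateral medians of 18.5 and 15.8 (5 each). The loaded and contralateral libraries overlapped in these treatments. In cancellous bone the averaged difference of Itga11 had the opposite sign, -0.57 at 1 week and -0.41 at 2 weeks, and did not pass. The ligand collagens rose in cortical bone too, with 9 of 16 higher at 1 week and 4 of 16 at 2 weeks, and none changed in cancellous bone.

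Treatments were then compared with vehicle throughout in loaded limbs. In cartilage 2 of 42 member values passed (2.35% of genes over these comparisons), both at 2 weeks for vehicle then alendronate, where 10.5% of genes passed. The 5 Ddr2 libraries of vehicle then alendronate had 474, 526, 1895, 355 and 473 normalised counts, against 118, 198 and 448 with vehicle throughout (8). The libraries overlapped at their edge, and the difference was 1.48 ± 0.37 (adjusted p = 0.0076, limma). Itgb1 had 843, 1188, 1308, 671 and 717, against 252, 511 and 881, a difference of 0.85 ± 0.27 (adjusted p = 0.032).

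Both differences depended on single libraries. Without replicate 3 of the vehicle then alendronate loaded limbs Ddr2 differed by 1.07 with an adjusted p of 0.070 and neither gene passed, Itgb1 was also lost without replicate 2, under quantile scaling (0.65, adjusted p = 0.11) and without the muscle-rich libraries (0.75, 0.062), and all 10 skeletal muscle markers were higher in the vehicle then alendronate group (median 4.40). The letter of the sample codes, whose meaning the labels do not give, changes with alendronate in cartilage and lymph node at 2 weeks, so this code series and alendronate cannot be told apart there. The median over all genes itself shifted by -0.18 in this comparison.

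In contralateral cartilage at 2 weeks Ddr2 was also higher with vehicle then alendronate. It had 189, 333 and 1177 normalised counts (6), against 64.6, 136 and 259 with vehicle throughout (8), with an overlap. The difference was 1.45 ± 0.36 (adjusted p = 0.0099, limma), where 6.18% of genes passed, and with array weights it was 1.09 (0.060). The limit on the code series holds here too.

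Over all contralateral tissues 6 of 168 member values passed (1.51% of genes), 4 higher and 2 lower. Both lower values came from cortical bone at 1 week. The 5 contralateral Itgb1 libraries of PTH then alendronate had 171, 192, 244, 182 and 116 normalised counts, against 182, 373 and 666 with vehicle throughout (6). They overlapped, and the difference, fitted with the code series as a term, was -0.94 ± 0.26 (adjusted p = 0.045, where 2.67% of genes passed).

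Itga2 in the same bone had 1.06, 0.00, 1.97, 17.4 and 19.6 normalised counts with vehicle then alendronate, against 0.00, 15.5 and 47.6 with vehicle throughout (6). The groups overlapped over most of their ranges. The fitted difference was -2.93 ± 0.91 (adjusted p = 0.035, where 10.1% of genes passed) and -1.15 (0.70) without the code series term. The Itga2 call was also lost with libraries under 100000 reads included (adjusted p = 0.44), with a pseudocount of 0.25 (0.0775), with no filter on low values (0.052), without the 1 loaded library whose code does not match its group (0.061), and without replicate 2 or 3 of the vehicle then alendronate limbs (highest 0.087).

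The Itgb1 difference in that bone was called in 3 of 9 other settings. Its call was lost without the code series term (-0.95, adjusted p = 0.090), with libraries under 100000 reads included (-0.52, 0.75), in edgeR (-0.62, 0.15), with no filter on low values (-0.94, 0.055), under quantile scaling (-0.68, 0.10) and with array weights (-0.74, 0.070). It was also lost in 13 of 23 fits that each left out 1 library (highest adjusted p 0.15).

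In bone the loaded limbs showed no treatment difference that passed, with 0 of 70 member values by limma and 0 by edgeR (0.0274% of genes by limma, 11 values at an unadjusted p under 0.05). The smallest adjusted p belonged to Itga1 in cortical bone at 2 weeks, 2.17 ± 0.57 higher with PTH then vehicle than with vehicle throughout (0.079).

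In lymph node the α subunit Itga1 was higher at 2 weeks with vehicle then alendronate on both sides, and with PTH then alendronate it passed on the contralateral side. On the loaded side 2 of 42 member values passed over the treatments and weeks (5.51% of genes), Itga1 and Itgb1 with vehicle then alendronate. These are 2 of 7 members in a comparison where 29.0% of all genes passed, so the members' share is near that of genes in general. Itga1 had 8.61, 33.5 and 41.8 normalised counts with vehicle then alendronate (8), against 8.24, 16.2 and 25.1 with vehicle throughout (7), a difference of 0.81 ± 0.32 (adjusted p = 0.046). Itgb1 had 329, 451 and 492, against 191, 295 and 342, a difference of 0.66 ± 0.19 (0.0089). Both genes overlapped between groups. The Itga1 call was lost with a pseudocount of 0.25 (0.051) and with no filter on low values (0.055).

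On the contralateral side Itga1 had 20.1, 39.4 and 64.9 normalised counts with vehicle then alendronate (8) and 19.6, 40.0 and 59.2 with PTH then alendronate (8), against 6.03, 15.3 and 37.7 with vehicle throughout (6). The differences were 1.17 ± 0.33 (adjusted p = 0.014, where 9.54% of genes passed) and 1.24 ± 0.33 (0.014, where 5.34% passed), and both share the vehicle libraries. Itga2 had 3.07, 5.71 and 13.5 with vehicle then alendronate, against 0.00, 2.21 and 5.18 with vehicle throughout, a difference of 1.27 ± 0.41 (0.037). All 3 comparisons overlapped in their ranges. With libraries under 100000 reads included none of the 3 passed, at adjusted p-values of 0.094, 0.10 and 0.098, and Itga2 did not pass with a pseudocount of 0.25 (0.071).

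The lymph node values carry the same limit on the code series as the cartilage at 2 weeks. One loaded-side library of vehicle then alendronate, replicate 8, had 0 Ddr2 reads among 153802, where the other 7 libraries reached 334 normalised counts. Without it Itga1 differed by 1.04 (adjusted p = 0.0044) and Itgb1 by 0.66 (0.0074).

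The members also varied together across cartilage. Over the 113 cartilage libraries after loading, centred within each table, Itgb1 and Ddr2 had a Pearson correlation of 0.750, Itga11 and Itgb1 of 0.694, Itga11 and Ddr2 of 0.612, and Itga10 and Itga11 of 0.581. With each group of limb and treatment centred on its own mean, the order differed. Itgb1 and Ddr2 then had 0.604, Itga10 and Itga11 0.501, Itga11 and Ddr2 0.435 and Itga11 and Itgb1 0.420. Itga11 was most like Lum (0.876), Dkk3 (0.871) and Thbs2 (0.863), the first a small proteoglycan of collagen fibrils and the last a matricellular thrombospondin. Itgb1 was most like the collagen crosslinker Loxl2 (0.870), Myof (0.864) and Col6a3 (0.861), and Ddr2 most like Rarg (0.826), Timp2 (0.820) and Sparcl1 (0.798).

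Rank for rank, the nearest genes of the other members had lower correlations when limbs and treatments were pooled. This did not hold for Itga10 with each group centred. Its first gene Raph1 then had 0.798, against 0.778 for Lum with Itga11, 0.724 for Loxl2 with Itgb1 and 0.737 for Rarg with Ddr2. Itga10 was nearest to Raph1 (0.803), Ndufa4l2 (0.766) and Ngef (0.745), and Ddr1 to Hspg2, the perlecan gene (0.626), Myl6 (0.609) and Lima1 (0.605). Itga1 was nearest to Dnajc18 (0.590), Rufy2 (0.574) and Polk (0.571), and Itga2 to Pde8a (0.497), Mctp2 (0.462) and Dgkh (0.462). These correlations pool loaded and contralateral limbs and all treatments, so they include the loading difference itself, and they were taken among 14607 genes.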

How the data were processed

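The deposited values are reads divided by 1 size factor per library (a normalised signal), made by the authors with the tools STAR, Trimmomatic 0.39 and edgeR on mm10, per the submitters' processing notes. Whole reads could be recovered for 100% of values to within 0.01 of a read. Libraries are 3′ counts. Of 549 samples described, 505 had a column, and 28 of these with fewer than 100000 reads were left out. Every table had 27 entries that carried no gene and that held at most 0.295% of a library's reads, and they stayed out of sums and tests.

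Each tissue and week was fitted on its own with limma 3.58.1 (trend, R 4.3.3) on log2(normalised count + 1) over genes that reached a CPM of 1 in a number of libraries no smaller than the smallest group, with the mouse as a random block and Benjamini-Hochberg adjustment over all genes tested. A difference passed at an adjusted p under 0.05 and needed 3 libraries per arm, so the loaded bone of PTH then alendronate at 1 week, with 1 library kept in each bone, was not tested. Limb was a term before loading, and the code series was a term in bone after loading. Mice were matched through the codes in the sample titles. In cartilage 28 of 29 shared replicate numbers at 1 week and 25 of 25 at 2 weeks named the 2 limbs of 1 mouse. The numbers therefore pair limbs there, apart from 1 number in PTH then alendronate at 1 week. In cortical bone at 1 week 3 of 17 did. One cortical library, vehicle then alendronate left replicate 2, has a code that does not match its group, and leaving it out was tried. No pair of libraries of 1 group agreed within counting noise (lowest chi-square per degree of freedom 1.83).

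There were 102 planned comparisons with 714 member values, of which 24 passed, 22 higher and 2 lower. The fit was also run on simulated counts for some of the comparisons, without pairing of limbs. Its outcome is not given here, and no result rests on it. After loading, the replicates of a group were limbs of separate mice by their codes, so p-values measure the spread between mice. The exception was loaded cortical bone of vehicle then alendronate at 1 week, with 9 libraries from 8 mice. Before loading a group pooled left and right limbs of the same mice, so its libraries were not all separate mice. The mouse entered there only as a random block, with a correlation of 0.017 in cartilage. Named genes were the 7 members, the 3 genes most correlated with each, and the 2 of smallest p in each list. The members and lists were chosen with earlier results of these data known. Alternatives were edgeR 4.0.16 on recovered reads, all libraries, a pseudocount of 0.25, no filter on low values, no mouse block, quantile scaling, array weights, no code series term, a replicate block, single limbs and leaving out replicates. The average over treatments and the leaving out of muscle-rich libraries and of 3 single libraries were chosen after seeing the data.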

Additional observations from a re-analysis of the deposited data

Results flagged for a closer look

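Among 42 groups of 4 to 10 libraries that could be examined this way for the members in comparisons that passed, 3 held a library that lay farther from the rest than the critical gap for a group of its size, and chance marks about 1 group in 20. Ddr1 in contralateral cartilage of PTH then alendronate at 1 week had its lowest library, replicate 4 with 1753328 reads, at 1.66 on the log2(normalised count + 1) scale, with the next at 3.69 and the highest at 4.80 of 6 libraries. Without it Ddr1 in that treatment still rose with loading (1.5, adjusted p = 0.0041, limma).

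Ddr2 in loaded cartilage of vehicle then alendronate at 2 weeks had its highest library, replicate 3 with 749646 reads, at 10.89, with the next at 9.04 and the lowest at 8.48 of 5 libraries. Its removal takes Ddr2 against vehicle throughout to 1.07 with an adjusted p of 0.070. Itgb1 in loaded cartilage of PTH then vehicle at 2 weeks had its lowest library, replicate 6 with 1827191 reads, at 8.30, with the next at 9.06 and the highest at 9.72 of 8 libraries. Without it Itgb1 still rose with loading in that treatment (1.05, adjusted p = 0.0013).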

How the results depend on the processing

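None of the 32 named values that had passed changed direction under the alternatives run for it, and values that had not passed were not followed. Counts of passing values moved as follows, with the count in the report in brackets. The share of all genes that passed under each setting is not given here. The moves are therefore not read as particular to the members. With all libraries 1 value passed for PTH before loading (2), 1 in contralateral tissues (6), 1 for loading in cortical bone (0) and 1 for treatments in loaded bone (0). Array weights gave 5 for PTH before loading (2), 13 and 8 for loading in cartilage at 1 and 2 weeks (8 and 4), 6 in loaded cartilage (2), 15 in contralateral tissues (6), 5 in loaded-side lymph node (2), and 1 each for loading in cortical bone, treatments in loaded bone, averaged loading in cortical bone at 1 week and averaged loading in lymph node at 2 weeks (0 each). Left limbs alone gave 0 and right limbs alone 1 for PTH before loading. edgeR gave 11 in contralateral tissues, 1 for the change of the loading response and 2 for loading in lymph node (0), and quantile scaling 1 in loaded cartilage. A pseudocount of 0.25 or no filter gave 1 in loaded-side lymph node. Without the code series term, which only bone has, neither of the 2 bone values among the 6 in contralateral tissues passed, which leaves 4. The replicate block pairs the limbs of a mouse in cartilage, with 1 exception in PTH then alendronate at 1 week. It gave 3 at 1 week (8) and 3 at 2 weeks (4). It gave 2 in cortical bone, where numbers seldom pair mice, and 2 for PTH before loading (2), where they name different mice. Without muscle-rich libraries 1 value passed in loaded cartilage, and without lymph node vehicle then alendronate left replicate 8 averaged loading in lymph node at 2 weeks gave 1. Leaving out 1 library at a time gave 0 to 2 in loaded cartilage, 5 to 7 in contralateral tissues, 3 to 5 for loading in cartilage at 2 weeks, 3 to 4 for its average, 0 to 1 for averaged loading in cortical bone at 1 week and 0 to 2 for loading in lymph node. Among 444 settings of the 32 named values, 60 lost the call and 384 kept it. The cause of these moves was not tested. Precision is limited for Itga2, and for Itga10 and Itga11 in lymph node, by counts near 0, and in bone at 1 week by the libraries left out for depth.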
